A study of Mus musculus with 3 samples.

Results

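The genes described here are the 35 genes of glucose breakdown in the cytosol: glucose transporters, the enzymes of glycolysis and the regulators of its flow, lactate dehydrogenases and lactate transporters, and the enzymes of the pentose phosphate pathway. They were chosen by symbol, and each was found on the array through the accession of its probes. All 35 had at least 1 probe above background, out of 13179 genes measured and 20660 genes with a named probe, and 34 of the 35 were above background in all 6 RNA samples. The RNA came from bone marrow-derived macrophages of C57BL/6J mice, matured with medium conditioned by L929 cells as a source of the growth factor CSF-1 and then kept in 0.1% serum. Treated macrophages received adiponectin, a hormone of fat cells, at 12 µg/ml for 18 h; untreated macrophages, of the same strain and in the same low serum, received none. Each of 3 two-colour Agilent arrays, labelled biological replicates 1, 2 and 3, held 1 treated and 1 untreated RNA, and the treated RNA carried Cy5 on replicate 2 but Cy3 on the others. One label text gives the dose in mg/ml; the unit of the treatment text is used. The labels do not say whether the replicates came from separate mice, so p-values measure the spread between these arrays.

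Glycolysis splits glucose into pyruvate and yields ATP without oxygen. Its flow is set mainly at glucose entry, at hexokinase and at phosphofructokinase, and fructose-2,6-bisphosphate, made and destroyed by the PFKFB enzymes and by TIGAR, is the strongest activator of phosphofructokinase. Pyruvate can be turned into lactate and exported, or enter mitochondria, while the pentose phosphate pathway drains glucose-6-phosphate to make NADPH and ribose. Macrophages activated by inflammatory signals are known for high glycolysis and lactate release.

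All 3 arrays shared 1 slide and 1 scan. Treated channels had 43.9% to 47.5% of probes well above background and untreated channels 53.4% to 54.3%. The median log2 ratio of all tested genes was -0.17, and it moved to -1.03 when each array was median-centred in place of loess, a setting in which limma called 0 genes and 216 were higher and 5098 lower at an unadjusted p under 0.05. Across the 35 members, the ratios of replicates 1 and 3 correlated at r = 0.976, against 0.884 for replicates 1 and 2 and 0.918 for replicates 2 and 3. These are correlations across genes, which are not independent of each other, and replicate 2 has the other dye orientation. Of 9 measured macrophage markers, 2 rose and 7 fell, and their summed level was 172165 to 213849 in treated against 354280 to 398717 in untreated samples. The 7 that fell include the CSF-1 receptor gene Csf1r (log2 change -1.79) and Mertk, a receptor for dead cells (-2.05). The 2 that rose were Cd14 (0.97) and Spi1 (0.79). The 7 measured neutrophil markers summed to 26556 to 41628 in treated and 25145 to 28962 in untreated samples. Most of these sums was S100a9, which did not pass (18118 to 30310 in treated and 18572 to 21034 in untreated samples). Of the 7 markers 3 rose, most of all Camp (1.27), and 3 fell, most of all Ltf (-2.08). Of 3 dendritic cell markers 1 rose (Zbtb46, 1.51), with sums of 43804 to 49034 in treated and 35095 to 41415 in untreated samples. Nearly all of these sums was Siglech, which did not pass (43473 to 48678 in treated and 34925 to 41246 in untreated samples). Probes differ in brightness, so a sum mostly follows its brightest probes. Of 3 T cell markers 2 rose (Cd3e, 0.96, and Lck, 0.89), with sums of 2521 to 2824 in treated and 2110.3 to 2400.2 in untreated samples. The largest part was Cd4, which did not pass (1495 to 1617 in treated and 1542 to 1833 in untreated samples). Of 3 fibroblast markers 2 rose (Dcn, 0.79, and Col1a2, 0.35), with sums of 419 to 471 in treated and 304 to 343 in untreated samples. Of 3 endothelial markers 1 rose (Kdr, 1.07), with sums of 4363 to 6019 in treated and 2279 to 2703 in untreated samples. Nearly all of these sums was Kdr itself (4165 to 5818 in treated and 2080 to 2501 in untreated samples). Of 2 B cell markers 1 fell (Cd79b, -1.69), with sums of 437 to 479 in treated and 1267 to 1338 in untreated samples. The 1 measured NK cell marker did not pass, and none of the listed markers of erythroid cells, mast cells or basophils and adipocytes was measured above background. The part of these markers in the changes below was not tested, and in bulk RNA fewer cells of a type and less RNA per cell cannot be told apart.

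Most members were lower after adiponectin, by small amounts, while 4 were strongly higher. Limma, with Benjamini-Hochberg adjustment over all 13179 genes and a threshold of 0.05, called 4 members higher (11.4% of 35, where 24.5% of all tested genes were called higher) and 21 lower (60.0%, where 46.1% of all tested genes were called lower). The remaining 10 did not pass, and 0 of them had an unadjusted p under 0.05. The members' median log2 change was -0.29, and 25 members lay below and 10 above the tested genes' median of -0.17. All 4 rises were 2-fold or more (11.4%, against 6.8% of all tested genes). Of the falls, 3 reached 2-fold (8.6%, against 12.6%) and 18 lay between -0.90 and -0.24. The largest fall, Pfkfb4 at -1.57, was greater in size than the rises of Slc2a1 (1.52) and Slc2a6 (1.50). The treated and untreated levels did not overlap for the same number of rises, 4 (11.4%, against 26.8% of all tested genes), and for 20 members that were lower in treated samples (57.1%, against 48.8%). With the tested genes of every array set to a common centre, 4 members rose and 15 fell, where 35.2% and 36.7% of all tested genes were called higher and lower. Slc2a3, Tpi1, Pgam1, Eno3, Taldo1 and Rpe each lost their call in at least 4 of 14 alternatives other than median centring. With median centring, Pfkfb3 was at 2.14, Eno2 at 1.21, Slc2a6 at 0.46 and Slc2a1 at 0.40, none of them called by limma.

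**Figure D1:**
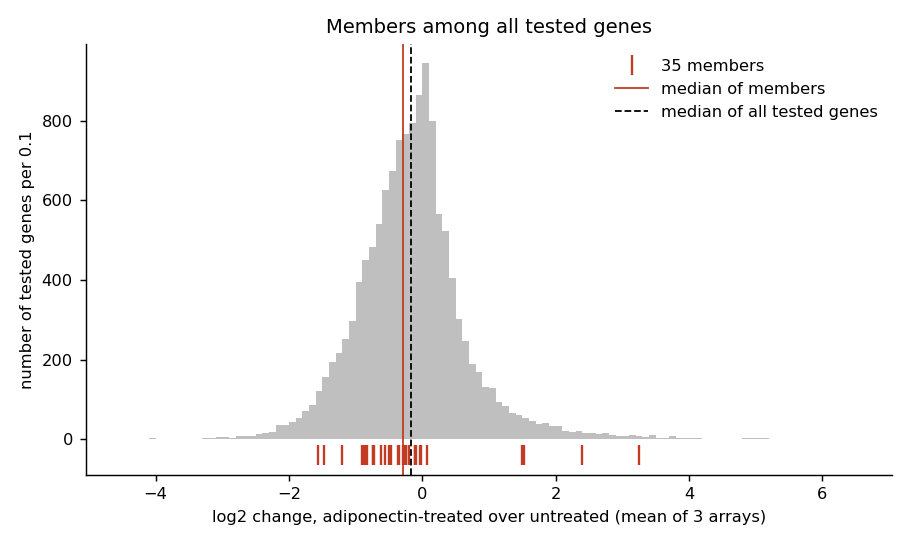
Histogram of the log2 change (treated over untreated, mean of 3 arrays) of all 13179 tested genes, with each of the 35 members as a red tick below. Most ticks sit just left of 0, with a members' median of -0.29 (red line) beside -0.17 for all tested genes (dashed line), and 4 ticks stand apart on the right.

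**Figure D2:**
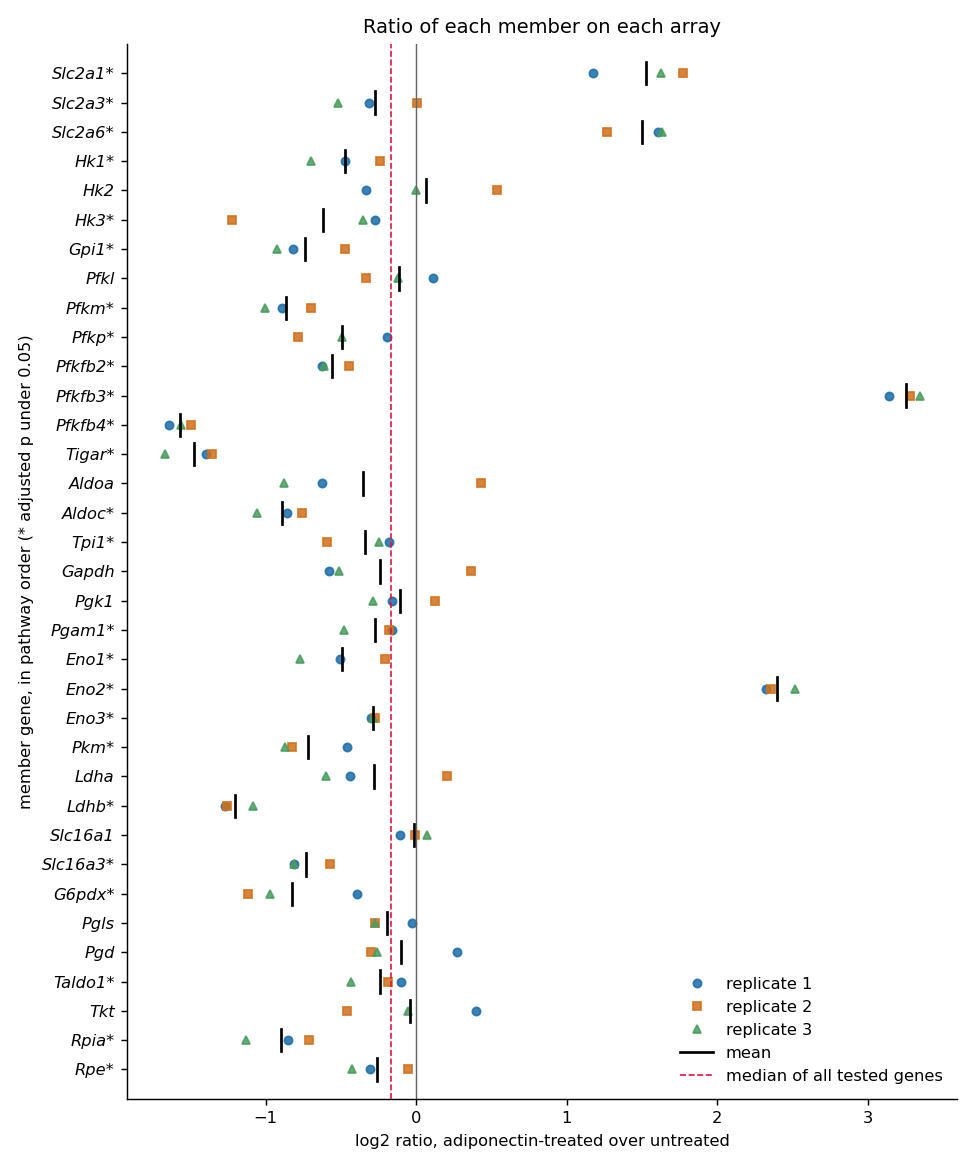
Log2 ratio of each member on each of the 3 arrays, in pathway order from glucose transporters at the top to the pentose phosphate enzymes at the bottom; black bars are means, the dashed line is the median of all tested genes and asterisks mark members called by limma. Pfkfb3, Eno2, Slc2a1 and Slc2a6 lie right of 0 on all arrays, and replicate 2 stands apart from the other arrays for Aldoa, Gapdh, Ldha, Hk2 and Hk3.

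The member that rose most acts on fructose-2,6-bisphosphate. Pfkfb3 encodes the PFKFB enzyme with the strongest bias towards making this activator. Its normalized intensity, in arbitrary units, was 30993, 27696 and 30533 in treated macrophages of replicates 1, 2 and 3, against 3510.0, 2847 and 3005 in untreated macrophages. Every treated level stood far above every untreated level. The log2 ratios on replicates 1, 2 and 3 were 3.14, 3.28 and 3.34. Their mean was 3.26 ± 0.084 (limma's moderated SE, n = 3 arrays), a 9.56-fold rise (limma adjusted p = 3.86e-08). Its probe is designed to transcript NM_001177753; a dimmer probe, designed to NM_133232, gave 2.72.

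The other genes of the same control point were lower. Pfkfb4, a PFKFB paralogue that can both make and destroy fructose-2,6-bisphosphate, had levels of 873, 902 and 908 in treated against 2726, 2540.0 and 2688 in untreated macrophages. The groups were widely apart and each was narrow. With ratios of -1.64, -1.49 and -1.57 on the arrays, Pfkfb4 fell by 1.57 ± 0.082 on the log2 scale (limma adjusted p = 8.77e-07). Tigar encodes a phosphatase that destroys fructose-2,6-bisphosphate and so sends glucose towards the pentose phosphate pathway. Its levels were 279, 238 and 233 in treated against 734, 609 and 740.2 in untreated macrophages, again with no overlap. With array ratios of -1.40, -1.36 and -1.67, Tigar fell by 1.47 ± 0.093 (limma adjusted p = 2.28e-06), and its second probe gave -1.34. Pfkfb2, the paralogue best known from heart, was dim: 81.9, 76.6 and 81.9 in treated against 127, 104 and 126 in untreated macrophages. It was not well above background in treated cells on any array, and was 1.48-fold lower there (limma adjusted p = 3.69e-04). The log2 change of -0.56 became -1.57 when normexp had an offset of 0, and -2.92 in the ratio written by the scanner software. Its weakest value in the alternatives other than median centring was -0.39, so the size of this fall is uncertain. Within this control point, 1 of 4 genes rose and 3 fell, where 24.5% and 46.1% of all tested genes were called higher and lower.

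Glucose entry also held rises. Slc2a1 encodes GLUT1, the main glucose transporter of activated macrophages. Its levels were 11837, 13579 and 12842 in treated against 5255, 3969 and 4155 in untreated macrophages, with no overlap. Array ratios of 1.17, 1.77 and 1.63 gave a log2 change of 1.52 ± 0.12, or 2.88-fold (limma adjusted p = 7.89e-06). Slc2a6 encodes GLUT6, a transporter of the same family that sits on internal membranes. It had levels of 61690.1, 48185 and 58111 in treated against 20299, 20007 and 18754 in untreated macrophages, where the lowest treated value was well above the highest untreated one. Array ratios of 1.60, 1.27 and 1.63 gave a change of 1.50 ± 0.098, or 2.83-fold (limma adjusted p = 2.77e-06), with 1.51 for its second probe. Slc2a3, which encodes the high-affinity transporter GLUT3, was dim, at 247, 308 and 247 in treated against 307, 308 and 354 in untreated macrophages. These ranges overlapped; the change of -0.28 just passed (limma adjusted p = 0.0479), and replicate 2 alone was at 0.00.

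The remaining rise was in the lower part of glycolysis. Eno2 encodes the gamma enolase known from neurons, which catalyses the same step as the other enolases. Its levels were 4379, 4434 and 5866 in treated against 876, 865 and 1025 in untreated macrophages, with no overlap. Array ratios of 2.32, 2.36 and 2.52 gave a log2 change of 2.40 ± 0.084, or 5.27-fold (limma adjusted p = 1.39e-07). The paralogues for the same step were lower: Eno1, the common alpha enolase, was at -0.49 ± 0.11 (limma adjusted p = 0.00405) and Eno3, the muscle enolase, at -0.29 ± 0.079 (limma adjusted p = 0.0105). The call of Eno3 was lost in 4 alternatives, among them centring on the tested genes (-0.12, limma adjusted p = 0.217). Eno2 lies on chromosome 6 near the member Tpi1. Of the genes between them, Lrrc23, Gm38895 and Gm38894 were not measured, and Spsb2 was at -0.04, which did not pass, and Tpi1 at -0.34, which was lower.

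**Figure D3:**
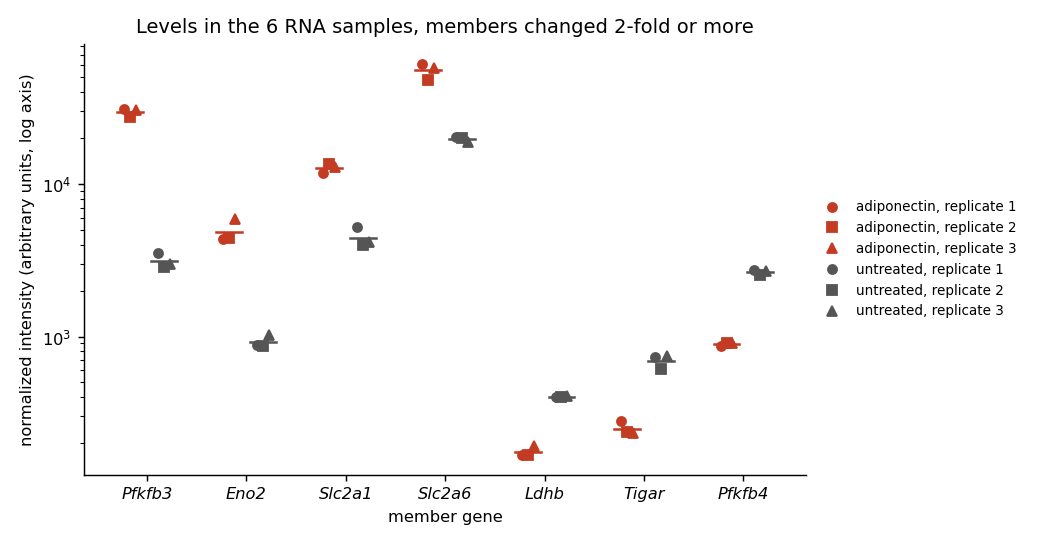
Normalized intensity (arbitrary units, log axis) of the 7 members that changed 2-fold or more and were called, in the 3 treated (red, left) and 3 untreated (grey, right) RNA samples, with bars at geometric means. In each gene the treated and untreated points do not overlap; levels are not comparable between genes, since probes differ in brightness.

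The promoter windows of the 4 members that rose and of Pfkfb4, the paralogue of Pfkfb3 that fell, are printed so that their letters can be compared. They run from 250 bases before to 50 bases after each RefSeq start (build GRCm38.p6; all but Slc2a3 of the 35 members had an entry), 5′ to 3′ on the gene's strand, and Pfkfb3 has 2 starts. Capitals mark ACGTG on either strand (the core of the hypoxia-response element), CACGTG (the E-box, which holds ACGTG on both strands) and TGANTCA (the AP-1 motif, N being any base).
Pfkfb3, chr2:11553880-11554179, minus strand: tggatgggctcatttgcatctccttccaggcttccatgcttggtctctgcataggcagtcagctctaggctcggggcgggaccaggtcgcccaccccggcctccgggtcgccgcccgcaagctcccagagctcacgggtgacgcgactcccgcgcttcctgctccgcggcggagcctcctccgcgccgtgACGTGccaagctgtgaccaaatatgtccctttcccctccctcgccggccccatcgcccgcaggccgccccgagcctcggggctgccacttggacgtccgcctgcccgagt
Pfkfb3, chr2:11502041-11502340, minus strand: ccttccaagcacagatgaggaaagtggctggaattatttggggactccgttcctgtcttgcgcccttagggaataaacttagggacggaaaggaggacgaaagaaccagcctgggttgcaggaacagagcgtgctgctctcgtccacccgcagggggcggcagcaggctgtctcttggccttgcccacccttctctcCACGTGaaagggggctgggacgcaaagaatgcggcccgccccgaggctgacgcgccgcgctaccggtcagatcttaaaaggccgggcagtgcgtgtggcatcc
Eno2, chr6:124769624-124769923, minus strand: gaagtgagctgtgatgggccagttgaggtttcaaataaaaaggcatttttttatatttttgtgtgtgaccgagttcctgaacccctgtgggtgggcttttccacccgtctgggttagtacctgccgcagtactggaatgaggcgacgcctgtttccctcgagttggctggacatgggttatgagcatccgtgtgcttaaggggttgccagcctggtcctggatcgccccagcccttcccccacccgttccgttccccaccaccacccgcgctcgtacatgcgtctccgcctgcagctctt
Pfkfb4, chr9:108991652-108991951, plus strand: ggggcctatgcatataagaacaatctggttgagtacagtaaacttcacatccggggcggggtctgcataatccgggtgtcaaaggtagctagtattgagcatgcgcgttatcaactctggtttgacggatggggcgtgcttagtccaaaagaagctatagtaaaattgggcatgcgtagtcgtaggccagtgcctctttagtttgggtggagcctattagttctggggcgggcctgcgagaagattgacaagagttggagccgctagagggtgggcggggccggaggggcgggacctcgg
Slc2a1, chr4:119108495-119108794, plus strand: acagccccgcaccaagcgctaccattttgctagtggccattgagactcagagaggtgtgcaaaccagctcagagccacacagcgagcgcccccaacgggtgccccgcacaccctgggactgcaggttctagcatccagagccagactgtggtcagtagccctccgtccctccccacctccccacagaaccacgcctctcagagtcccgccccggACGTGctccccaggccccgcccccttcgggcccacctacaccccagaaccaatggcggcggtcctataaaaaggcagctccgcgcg
Slc2a6, chr2:27027949-27028248, minus strand: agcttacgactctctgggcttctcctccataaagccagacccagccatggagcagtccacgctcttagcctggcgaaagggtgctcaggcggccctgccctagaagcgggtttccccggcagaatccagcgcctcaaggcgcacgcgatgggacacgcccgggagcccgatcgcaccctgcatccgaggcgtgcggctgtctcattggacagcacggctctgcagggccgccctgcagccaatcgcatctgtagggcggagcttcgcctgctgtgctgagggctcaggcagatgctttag
The first Pfkfb3 window holds ACGTG at position -60 from the start and the second holds CACGTG at position -53, while Slc2a1 holds ACGTG at position -36; positions are those of the first base of the match. The windows of Eno2, Slc2a6 and Pfkfb4 hold none of the motifs. A gene can have several windows, and ACGTG was in 21 of 49 member windows, against 19.6% of all 32851 windows. Counted by gene, 17 of 34 members had ACGTG in a window, against 21.8% of all 27025 genes in the table. Of these 17, only Pfkfb3 and Slc2a1 rose; the others include Aldoc, Pkm, Slc16a3 and G6pdx, which fell, and Hk2, Pgk1 and Ldha, which did not pass. CACGTG was found in 5 of 34 (14.7%, against 8.1% of all genes) and TGANTCA in 1 of 34 (2.9%, against 9.0%). These matches describe the letters only.

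The upper enzymes were lower or did not pass. Of 9 genes from hexokinase to aldolase, 0 rose in limma, also at an unadjusted p under 0.05, and 6 fell, with a median log2 change of -0.49, where 24.5% and 46.1% of all tested genes were called higher and lower. Hk1, the hexokinase bound to mitochondria in most tissues, was at -0.47 ± 0.10 (limma adjusted p = 0.00310), and -0.09 with its dimmer probe. Hk2, the inducible hexokinase, had levels of 1378, 1803 and 1468 in treated against 1733, 1245 and 1471 in untreated macrophages. The ranges overlapped and the change was 0.07 ± 0.15 (limma adjusted p = 0.706), with -0.33, 0.53 and 0.00 on replicates 1, 2 and 3. Hk3, the hexokinase of white blood cells, was at 13167, 9442 and 13010.2 in treated against 15945, 22068 and 16615 in untreated macrophages. It fell by 0.62 ± 0.17 on the log2 scale (limma adjusted p = 0.0104), and replicate 2, at -1.22, carried most of the change, against -0.28 and -0.35 on the other arrays.

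Gpi1, which turns glucose-6-phosphate into fructose-6-phosphate, was at -0.74 ± 0.10 (limma adjusted p = 2.48e-04), and its 3 probes ranged from -0.74 to -0.61. The muscle and platelet forms of phosphofructokinase, Pfkm (-0.86) and Pfkp (-0.49), fell, and the liver form Pfkl (-0.12, limma adjusted p = 0.334) did not pass. The aldolase gene Aldoc fell by 0.89 ± 0.090 on the log2 scale (limma adjusted p = 3.41e-05). Aldoa, the main aldolase, was among the brightest probes and split by array: 115567, 219969 and 101921 in treated against 178180.0, 163004 and 187528 in untreated macrophages. The treated level was higher on replicate 2 alone, and the mean of -0.36 ± 0.21 did not pass (limma adjusted p = 0.165).

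Lower glycolysis, from triose phosphate to pyruvate, had 5 of 8 genes lower and 1, Eno2, higher. Among all tested genes, 46.1% were called lower and 24.5% higher. Pkm, the pyruvate kinase gene, was at 31434, 29878 and 23086 in treated against 43297, 53018 and 42320.4 in untreated macrophages. No treated level reached the untreated range. Pkm fell by 0.72 ± 0.10 on the log2 scale (limma adjusted p = 2.60e-04). Tpi1, the triose phosphate isomerase (-0.34), and Pgam1, the phosphoglycerate mutase (-0.27), fell by less, and the dimmer probe of Tpi1 gave -0.09. Pgk1, the phosphoglycerate kinase that makes the first ATP of the pathway, was at -0.11 (limma adjusted p = 0.351).

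Gapdh, a glycolytic enzyme gene often used as a reference in expression assays, could be read from 7 probes. The brightest gave 103461, 148771 and 100339 in treated against 154608, 115872 and 143057 in untreated macrophages, so that replicate 2 again went the other way. Its log2 change was -0.24 ± 0.17 (limma adjusted p = 0.227). Over the 7 probes the mean changes ran from -0.24 to 0.21, with 3 above and 4 below 0. Ldha, the lactate dehydrogenase subunit that favours lactate production, had levels of 85329.8, 97746 and 74293 in treated against 115860.0, 84997 and 112711 in untreated macrophages. Replicate 2 again ran the other way; the 3 probes of Ldha ran from -0.28 to 0.30, and the brightest did not pass (limma adjusted p = 0.114). Without replicate 2, the only array with treated RNA in Cy5, the brightest probes of Aldoa, Gapdh and Ldha passed as lower, at -0.75, -0.55 and -0.52 (limma adjusted p = 2.99e-04, 8.86e-04 and 0.00142). On replicates 1 and 3 the dimmest probe of Gapdh was at 0.48 and 0.36, and that of Ldha at 0.62 and 0.34. Probes of 1 gene thus went opposite ways there too. When a dye term was added in limma, it passed for no member (lowest adjusted p = 0.0511, for Aldoa). That term rests on replicate 2 alone, so it cannot tell dye from replicate, and not passing does not exclude a dye effect. Transcripts of Gapdh and Ldha have many near-identical pseudogene copies, and which of them a probe can bind was not tested.

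**Figure D4:**
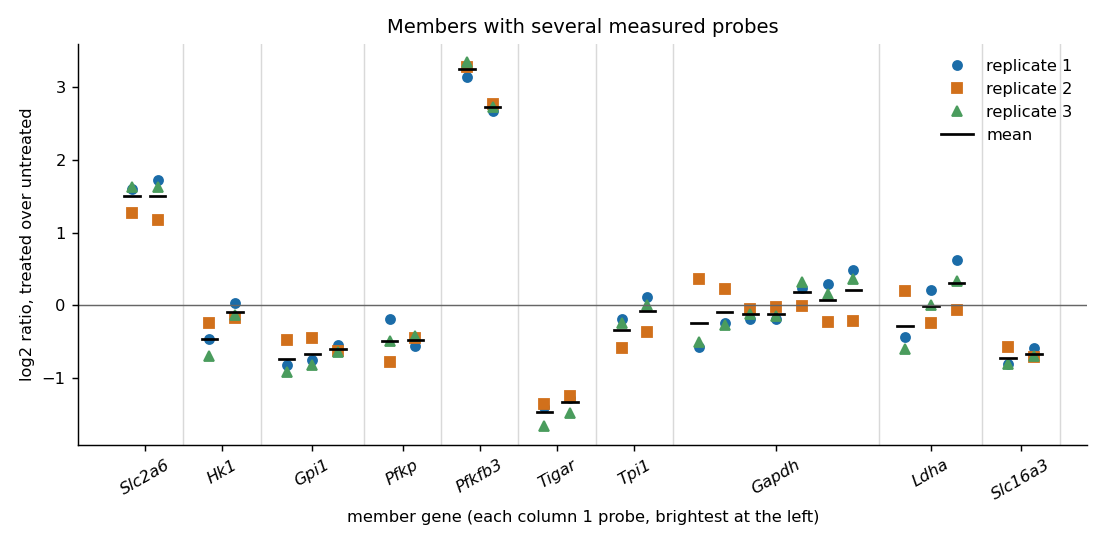
Log2 ratio on each array for every measured probe of the 10 members with several probes, brightest at the left, with bars at the mean. Probes of Slc2a6, Gpi1, Pfkp, Pfkfb3, Tigar and Slc16a3 lie on one side of 0 on all arrays, while the 7 probes of Gapdh and the 3 of Ldha straddle it.

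Of the 4 genes of lactate handling, 2 fell and 2 did not pass in limma, where 46.1% of all tested genes were called lower. Ldhb encodes the subunit that favours turning lactate back into pyruvate. Its levels were 167, 166 and 192 in treated against 403, 398 and 406 in untreated macrophages. The treated levels lay below the untreated ones by about the same distance on each array. With array ratios of -1.27, -1.26 and -1.08, Ldhb fell by 1.20 ± 0.085 on the log2 scale (limma adjusted p = 4.28e-06). Slc16a3 encodes MCT4, the lactate exporter of glycolytic cells, and had levels of 14469, 17118 and 13117 in treated against 25401, 25506 and 23033 in untreated macrophages. It fell by 0.73 ± 0.088 (limma adjusted p = 9.69e-05), with -0.67 for its second probe. Slc16a1, which encodes the related transporter MCT1, was at -0.02 ± 0.083 (limma adjusted p = 0.862).

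Of the 7 pentose phosphate genes, 0 rose in limma (0 at an unadjusted p under 0.05) and 4 fell, with a median log2 change of -0.24. Among all tested genes, 24.5% were called higher and 46.1% lower. G6pdx, the rate-limiting entry enzyme, had levels of 11722, 8715 and 7894 in treated against 15402, 18879 and 15453 in untreated macrophages. The groups did not overlap, and G6pdx fell by 0.83 ± 0.13 on the log2 scale (limma adjusted p = 6.04e-04). The next enzymes of the NADPH-making arm did not pass: Pgls was at -0.19 (limma adjusted p = 0.0840) and Pgd at -0.10 (limma adjusted p = 0.488). In the arm that rearranges sugars, Rpia, which makes ribose-5-phosphate, had levels of 197, 205 and 194 in treated against 356, 336 and 426 in untreated macrophages and fell by 0.90 ± 0.10 (limma adjusted p = 5.87e-05). Taldo1 (-0.24) and Rpe (-0.26) passed narrowly, with limma adjusted p = 0.0435 and 0.0365, and transketolase, Tkt, was at -0.04 (limma adjusted p = 0.820).

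Genes around the pathway were read in 4 further lists, whose counts stand beside the 24.5% of all tested genes called higher and the 46.1% called lower. Of 13 measured genes of pyruvate entry into mitochondria, 3 rose and 8 fell. Pcx, which carboxylates pyruvate to oxaloacetate, was at 1203, 1029 and 429 in treated against 156, 179 and 154 in untreated macrophages. It rose by 2.32 ± 0.23 (limma adjusted p = 3.01e-05), less on replicate 3 than on the others. Pdk1, the kinase that shuts pyruvate dehydrogenase, was at -1.89 ± 0.10, and Dlat, a subunit of that complex, at -1.54 ± 0.096 (limma adjusted p = 9.20e-07 and 2.19e-06). Pdp2 (-0.92), a phosphatase that reopens the complex, and its subunit gene Pdha1 (-0.91) fell as well.

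Of 19 measured other isoforms and helpers of the same steps, limma called 0 higher (0 at an unadjusted p under 0.05) and 10 lower. Emb, which encodes embigin, a partner of lactate transporters, was at -1.53 ± 0.086 (limma adjusted p = 1.28e-06), and the fructose kinase gene Khk at -1.32. Bpgm, which makes 2,3-bisphosphoglycerate, was at -1.22, the ribose phosphate pyrophosphokinase gene Prps2 at -1.01 and the urate and hexose transporter gene Slc2a9 at -0.95. Of 23 measured genes of gluconeogenesis, glycogen, hexosamine and polyol branches, 4 rose and 14 fell. Gpd2, the mitochondrial enzyme of the glycerol phosphate shuttle that reoxidizes NADH from glycolysis, was at 2648, 2771 and 2823 in treated against 519, 603 and 534 in untreated macrophages. It rose by 2.32 ± 0.085 (limma adjusted p = 1.67e-07), with no overlap. The glucose-6-phosphate carrier gene Slc37a4 (-1.03), the sorbitol dehydrogenase gene Sord (-0.96) and the hexosamine gene Gnpnat1 (-0.92) fell.

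Of 14 measured upstream regulators, 5 rose and 6 fell. Hif1a, the oxygen-regulated factor that drives glycolytic genes, had levels of 4589, 4490.2 and 4696 in treated against 890.1, 977 and 849 in untreated macrophages. It rose by 2.34 ± 0.088 (limma adjusted p = 1.90e-07). Myc, another activator of glycolytic genes, rose by 1.29 ± 0.12 (limma adjusted p = 1.74e-05). The paralogous arrestin genes Txnip, which restrains glucose uptake, and Arrdc4 went opposite ways, at -1.65 ± 0.11 and 1.45 ± 0.084 (limma adjusted p = 3.28e-06 and 1.46e-06). Prkaa1, a catalytic subunit of the energy sensor AMPK, was at -1.93 ± 0.089 (limma adjusted p = 4.59e-07). Mlxipl, the carbohydrate-responsive factor, rose by 0.45, and Egln1 and Egln3, the prolyl hydroxylases that mark HIF proteins for decay, were at -0.50 and -0.45. Epas1, which encodes HIF-2α, passed at 0.80 with its brightest probe and was at 0.08 as the mean over its probes, and Arnt, the HIF partner, was at 0.01 with its brightest probe and at 0.96 as that mean. Nfe2l2 (-0.41) and Trp53 (-0.33) fell, and Mlx (0.05) and Mlxip (-0.02) did not pass.

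**Figure D5:**
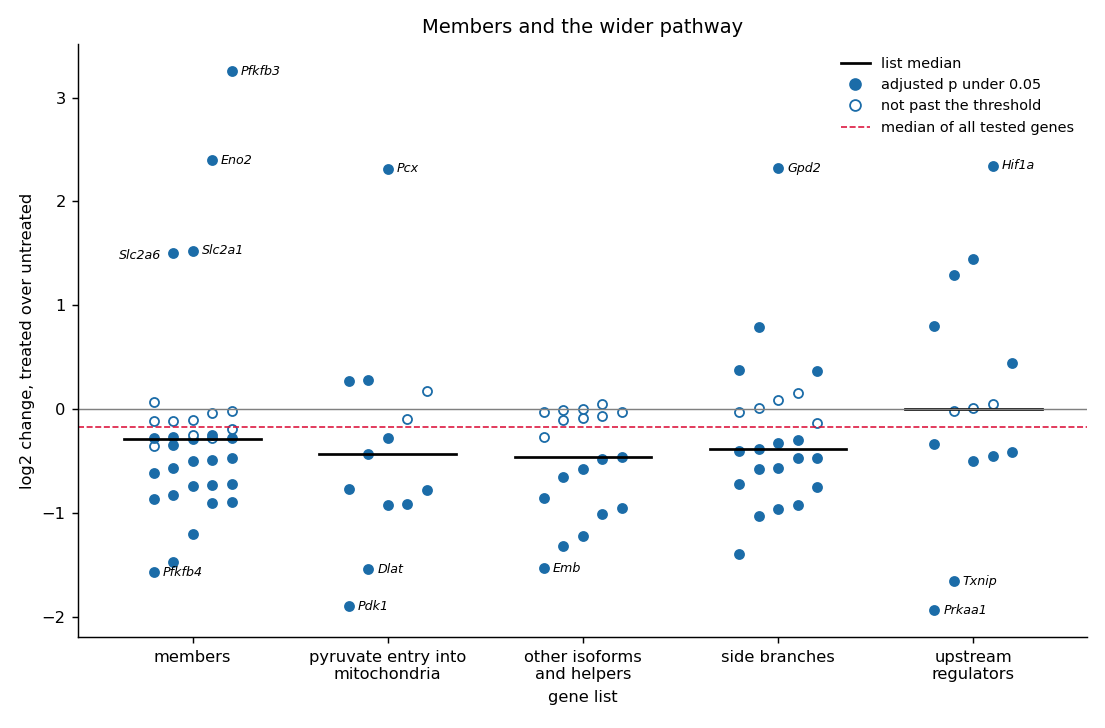
Log2 change (treated over untreated) of each measured gene in the member list and in 4 lists around it; filled points passed in limma, bars are list medians and the dashed line is the median of all tested genes. Each list but the upstream regulators has its median below that line, and single genes (Pfkfb3, Eno2, Pcx, Gpd2, Hif1a) stand far above it.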

How the data were processed

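Agilent Feature Extraction 10.7.3.1 gave the spot values of the two-colour arrays, per the file headers and the submitters' processing notes. The deposited intensity columns hold the median spot and local background brightness per dye, per the file headers, and the deposited log10 ratio is Cy5 over Cy3 processed signal. The deposited table of log2 values correlated at r = 0.990 to 0.993 with ratios made without background correction and turned to treated over untreated. How the background of the deposited table was handled is not given in the sources used. Intensities were corrected with normexp (offset 50) and loess in limma 3.58.1 under R 4.3.3. Outlier spots (323, 303 and 299) and control spots were left out, and no spot was saturated. Accessions were named through RefSeq GRCm38.p6 (27235 of 55681 probes had 1 symbol). A probe needed 3 of 6 readings well above background, and the brightest probe stood for its gene. Ratios were tested against 0 with lmFit and eBayes, and p-values adjusted over 13179 genes. SEs are limma's moderated ones. Levels are per channel after loess and Aquantile. Dye orientations were unequal, so dye effects are reduced, not cancelled. The scripts were tested on simulated data, and 3 arrays limit the precision. The members and lists were chosen with earlier results of these data known. Members called at 2-fold or more were given in full, and up to 5 called genes per wider list were named, except the upstream regulators, which were all named; 1 such gene is not reported here. Alternatives were 15 other settings; a slide block was not run, since 1 slide and 1 scan held all arrays. Rpia, Hk2, Hk3, Pkm, G6pdx, Slc16a3, Slc2a3, Aldoa, Gapdh and the wider-list genes given per sample were picked with their values in view.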

Additional observations from a re-analysis of the deposited data

How the results depend on the processing

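The 4 rises (Pfkfb3, Eno2, Slc2a1 and Slc2a6) were called in each of the alternatives except median centring, and all 25 called members kept their sign in each alternative that measured them. Outside median centring, 4 members were called higher and 15 to 24 lower. The count was 15 both in the scanner software's log ratio and with arrays centred on the tested genes. In the main setting 60.0% of members were called lower, against 46.1% of all tested genes. In the scanner software's log ratio these shares were nearly equal, with medians of -0.26 and -0.20. The members' share was only slightly higher with a normexp offset of 0 or without replicate 1. The gap was wider than in the main setting with array weights and without replicate 2, so the excess of falls among members depends on the setting. Leaving out 1 replicate gave 16 to 22 lower members. Where median centring replaced loess, limma called 0 members higher and 0 lower, 0 and 0 genes of the wider lists, and 0 and 0 of all tested genes. At an unadjusted p under 0.05 there were 1 and 13 of 35 members, and 0 and 31 of 69 genes of the wider lists. Among all 13179 tested genes there were 216 and 5098. Pfkfb3 was then at 2.14 ± 0.61, Eno2 at 1.21 ± 0.51, Slc2a6 at 0.46 ± 0.60 and Slc2a1 at 0.40 ± 0.66. Its median of all tested genes was -1.03. Under it Pdhb was at -0.87, Dld at -0.89, Gys1 at -0.80, Gfpt1 at -0.82, Epas1 at -0.37 and Mlxipl at -0.73, all turned in sign. Outside median centring, 19 called members held their call and 6 lost it at least once: Slc2a3 (adjusted p up to 0.366), Tpi1 (0.160), Pgam1 (0.319), Eno3 (0.217), Taldo1 (0.482) and Rpe (0.464). Read from their brightest probes, Aldoa, Gapdh and Ldha were called lower without replicate 2 and with array weights. In the main setting, members whose levels did not overlap numbered 4 higher and 20 lower in treated samples (26.8% and 48.8% of all tested genes). They numbered 4 and 17 without normalization between arrays, and 4 and 19 with a normexp offset of 0. For these other settings the shares of all tested genes are not given, so the counts cannot be read against them. Each ratio is already paired within its array, so no further replicate block was fitted. The signal over background limits Pfkfb2, whose treated level was not well above background, so the size of its fall is uncertain.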
